A study of Mus musculus with 10 samples.

Results

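Tnf, Tnfsf11, Tnfsf8 and Ltb, which encode ligands of the tumour necrosis factor (TNF) family, and Ccl4 and Ccl5, which encode CC chemokines, were examined in naive mouse CD8+ T cells. The 6 genes were taken by name from a table of 12637 genes, and all 6 passed the filter on low values. RNA came from Ikaros-Zn4-/- and wild type (WT) CD8+ T cells, 10 libraries in all. Each genotype had 2 libraries at 0 min, 2 after 30 min and 1 after 120 min of culture with plate-bound anti-CD3 plus anti-CD28. All donors were female C57Bl/6 mice aged 6 weeks, and splenic cells were sorted as CD8+ with high CD62L and low or absent CD44. Ikaros, encoded by Ikzf1, is a DNA-binding regulator of lymphocyte genes, and Ikaros-Zn4-/- mice are homozygous for loss of its zinc finger 4, a mutation the cells carry throughout their development. The first antibody triggers the T cell receptor, and the other supplies costimulation.

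TNF family ligands are made as membrane proteins that assemble into trimers and bind receptors of the TNF receptor family on neighbouring cells, and some are also cut off into soluble form. Tnf encodes the inflammatory cytokine TNF. Tnfsf11 encodes RANKL, best known as the signal that drives osteoclast formation and also used by T cells towards dendritic cells. Tnfsf8 encodes the ligand of CD30, and Ltb encodes lymphotoxin beta, which with lymphotoxin alpha forms a membrane trimer needed for lymphoid organ structure. Ccl4 and Ccl5 encode chemokines that attract leukocytes, and both are known products of activated or memory CD8+ T cells.

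All positions are in GRCm38 with GENCODE M21 annotation. Ltb (ENSMUSG00000024399, chromosome 17, 35194439 to 35196320, plus strand) and Tnf (ENSMUSG00000024401, chromosome 17, 35199381 to 35202007, minus strand) are neighbours, 3060 bases apart. Lta, the gene of lymphotoxin alpha, is also on the minus strand and lies 1157 bases from Tnf, on the side away from Ltb. Ccl4 (ENSMUSG00000018930, chromosome 11, 83662584 to 83664683, plus strand) lies 13228 bases from the related chemokine gene Ccl3. Ccl5 (ENSMUSG00000035042, chromosome 11, 83525778 to 83530518, minus strand) is on the same chromosome. Tnfsf11 (ENSMUSG00000022015, chromosome 14, 78277445 to 78308043, minus strand) and Tnfsf8 (ENSMUSG00000028362, chromosome 4, 63831308 to 63861347, minus strand) lie elsewhere.

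The promoters of Tnf and Tnfsf11 are shown because these were the members called higher at 30 min. They are the 250 bases before the start site, on the gene's strand, from RefSeq (GRCm38.p6), in which 4 of the 6 genes were matched by symbol (Tnf, Tnfsf11, Tnfsf8 and Ltb, but not Ccl4 and Ccl5). Capitals mark the letters GGAAA, a core bound by NFAT factors downstream of the T cell receptor, and GGGAA, the core bound by Ikaros, each read on both strands. The cores overlap where they form GGGAAA.
Tnf, chr17:35202008-35202257: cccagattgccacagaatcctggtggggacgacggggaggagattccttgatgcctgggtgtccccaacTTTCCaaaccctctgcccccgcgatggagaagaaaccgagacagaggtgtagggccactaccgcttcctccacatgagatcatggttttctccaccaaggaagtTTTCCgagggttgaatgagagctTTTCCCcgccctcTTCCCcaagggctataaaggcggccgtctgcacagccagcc
Tnfsf11, chr14:78308044-78308293: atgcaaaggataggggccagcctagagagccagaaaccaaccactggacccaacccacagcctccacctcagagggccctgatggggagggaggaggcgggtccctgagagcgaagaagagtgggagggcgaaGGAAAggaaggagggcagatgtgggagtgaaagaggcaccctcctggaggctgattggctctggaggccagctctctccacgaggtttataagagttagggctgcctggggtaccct

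The Tnf window held GGAAA 3 times, and those of Tnfsf11, Tnfsf8 and Ltb 1 time each, where 55.7% of 32536 promoter windows of the same length held it. GGGAA was found 2 times in Tnf and 2 times in Ltb and in neither Tnfsf11 nor Tnfsf8 (56.3% of windows). A TATA box with the letters TATAAA stood 29 bases before the Tnf start and 32 bases before the Tnfsf11 start. It was in neither the Tnfsf8 nor the Ltb window, and 12.3% of windows held it. An NF-kB-like pattern, GGG then any 5 bases then CC, was found in Tnf at 1 place, where it matched on both strands. It was found 2 times in Tnfsf11 and not in Tnfsf8 (46.0% of windows). In Ltb it began at base -87 and, in 1 overlapping run, at bases -40, -39 (both strands) and -38 relative to the start. Neither the AP-1 letters TGANTCA (6.73% of windows) nor the cAMP response element TGACGTCA (1.56%) occurred in any of the 4 windows. The GC box GGGCGG occurred 1 time in Tnf and in no other of them (33.0%).

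The 3′ untranslated region of Tnf is shown in part because AU-rich elements there, built on ATTTA in the DNA letters, are known to bind proteins that speed the decay of cytokine mRNA. A 30-base stretch, from base 437 to base 466 after the stop codon (chromosome 17, GRCm38), follows with ATTTA in capitals.
Tnf AU-rich stretch: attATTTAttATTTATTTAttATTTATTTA
The whole 3′ untranslated region of Tnf, 764 bases long, held ATTTA 8 times, a number reached by 0.149% of 1338 such regions of similar length. It held the longer TTATTTATT 5 times, and the other 5 genes held that nonamer 0 times (6.80% of 9723 such regions in the table held it). Tnfsf8 had 10 ATTTA in 2799 bases, reached by 11.99% of regions of similar length, Tnfsf11 had 6 in 1131 bases (5.52%) and Ccl4 had 2 in 302 bases (14.1%). Ltb, with 156 bases, and Ccl5, with 199 bases, had 0.

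Expression is given as RPKM, a read number divided by transcript length and by library total, so levels can also be set side by side between genes. Depth, recovered from steps in the values, was 4.504 to 13.3 M reads per library. Reads summed over the table came to 94.0% to 97.4% of this depth in 5 libraries and to 100.7% to 101.1% in the other 5, a share above 100% that a true total would not give, so the read numbers are approximate. The 5 with the lower share were all the replicate 1 libraries and WT 30 min replicate 2. For 5 of the 6 genes the values in 10 of 10 libraries came to whole reads within 0.05 read, and only Ltb did not, with 1 of 10. Replicates are not labelled as separate mice, so the p-values reflect nothing beyond the spread of these libraries, which may be technical. Ikzf1, the gene of Ikaros, was read at 206 to 263 RPKM in the 5 Ikaros-Zn4-/- libraries and 134 to 171 RPKM in the 5 WT libraries, and a value per gene does not check the loss of zinc finger 4. The sorted cells carried the defining genes of CD8 T cells, 8 of 8 listed genes, with summed levels of 1196 to 3313 RPKM in Ikaros-Zn4-/- and 1165 to 3072 RPKM in WT libraries.

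Stimulation split the 6 genes into several time courses. Tnf rose within 30 min and was lower again at 120 min than at 30 min, Tnfsf11 rose at both steps, Ccl4 rose between 30 and 120 min, and Tnfsf8 and Ltb fell by 120 min, Ltb by little. No change of Ccl5 passed the test. At 30 min 2 of 6 genes were called higher and 0 lower, where 6.51% of all 12203 genes tested were called higher and 12.5% lower. At 120 min 3 of 6 were higher and 2 lower than at 0 min, against 19.3% and 40.4% of all genes. Between 30 and 120 min 2 rose and 2 fell, against 16.9% and 31.3%. The median log2 change of the 6 was 0.30 at 30 min and 1.15 at 120 min relative to the median gene.

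The test was limma on log2(RPKM + 1), with p-values adjusted by Benjamini-Hochberg over all genes tested and called below 0.05. Stimulation changes are log2 changes averaged over both genotypes. The median gene changed by -0.13 at 30 min, by -0.32 at 120 min against 0 min and by -0.22 at 120 min against 30 min. Values below are relative to that median, while each adjusted p tests the change on the deposited scale. Each 120 min group is 1 library, whose spread was taken to equal that of the groups with 2. Both are labelled replicate 2 in the sample descriptions, while the title of the Ikaros-Zn4-/- one reads #1. By the descriptions, 120 min changes set replicate 2 against the mean of replicates 1 and 2. Replicate 2 lay above replicate 1 in every group of 2 for Tnfsf8 and Ltb, and below it for Tnfsf11. A term for replicate number (the replicate block) was among the alternatives. RNA of sorted cells in bulk cannot tell fewer cells that express a gene from less RNA per cell.

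**Figure D1:**
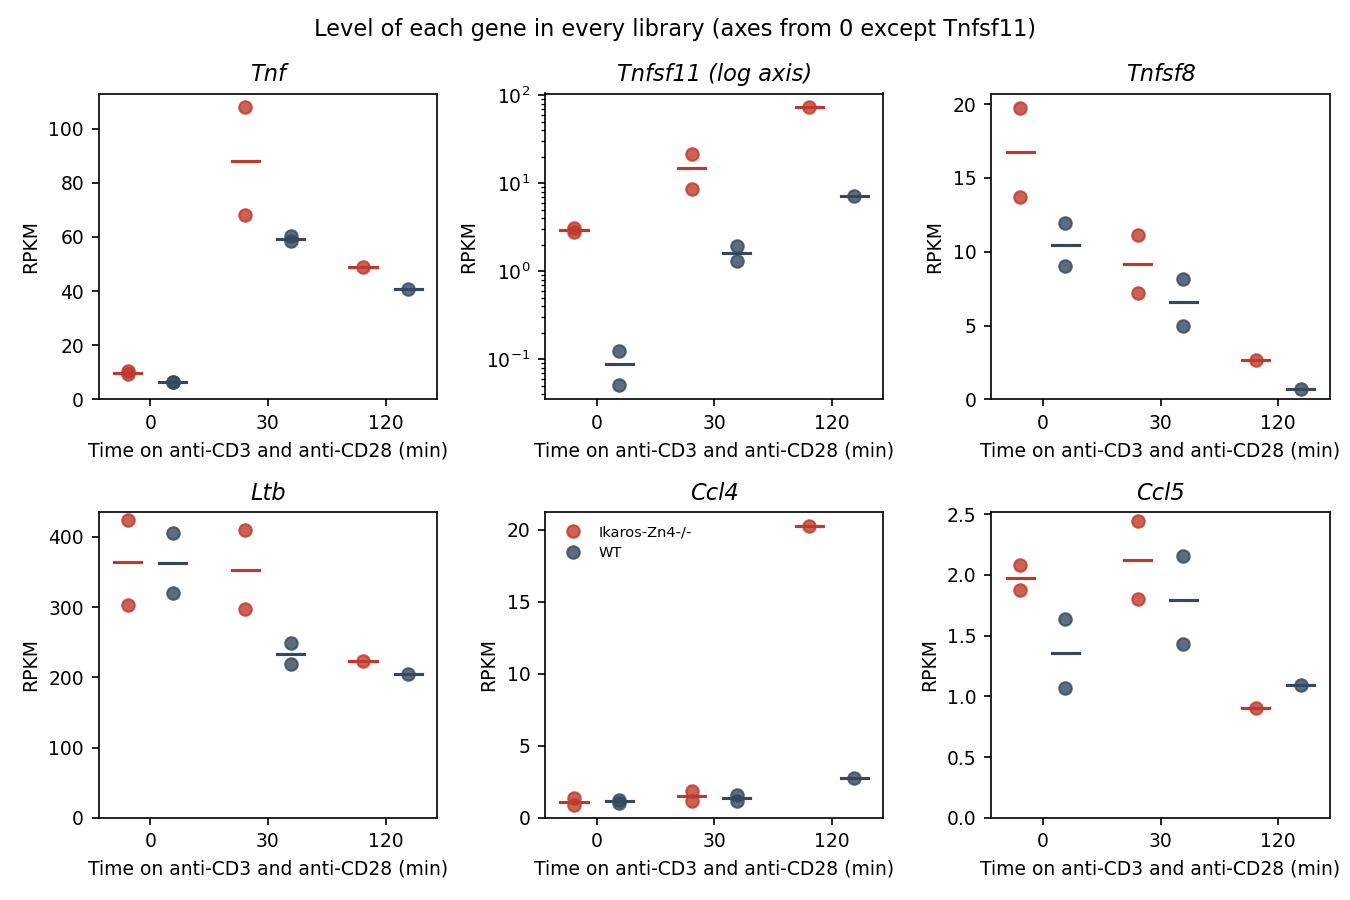
RPKM of each gene (vertical axis, from 0 except a log axis for Tnfsf11) against time in min, with 1 point per library, Ikaros-Zn4-/- left of WT and a line at the group mean. Tnf peaks at 30 min in both genotypes, Tnfsf11 climbs at each step, and Ccl4 reaches 20.2 RPKM in the Ikaros-Zn4-/- library at 120 min, against 2.74 RPKM in the WT library.

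Tnf had the largest change of the 6 at 30 min on the log2(RPKM + 1) scale, and was low but measurable before stimulation. In Ikaros-Zn4-/- cells it had 9.29 and 10.3 RPKM (0 min), 68.1 and 108 RPKM (30 min) and 48.9 RPKM (120 min). In WT cells it had 6.48 and 6.25 RPKM (0 min), 58.4 and 60.4 RPKM (30 min) and 40.8 RPKM (120 min). In both genotypes the libraries at 30 min stood above that at 120 min, which stood above those at 0 min, with no overlap between times. The ratio of group means at 30 min over 0 min was 8.99 in Ikaros-Zn4-/- and 9.33 in WT cells, where the same ratio for Tnfsf11 was 5.05 in Ikaros-Zn4-/- and 18.5 in WT cells. Tnf rose by 3.15 at 30 min (SE 0.15, limma, adjusted p = 0.000262) and by 2.67 at 120 min against 0 min (SE 0.18, adjusted p = 7.3e-05). From 30 to 120 min it fell by 0.45 (SE 0.18, limma, adjusted p = 0.0198). That later fall lost its call when the libraries were scaled by their median ratio (limma, adjusted p = 0.0702), with a spread estimated within the 30 and 120 min groups only (0.0661), without WT 30 min replicate 2 (0.0534) and in WT alone (0.163), in a range of 0.00221 to 0.163 over all its alternatives. The rise at 30 min was called in each genotype by itself, at 3.12 in Ikaros-Zn4-/- (SE 0.21, limma, adjusted p = 0.0025) and 3.18 in WT cells (SE 0.21, adjusted p = 0.00214). The mutant call was lost with the spread of the compared groups alone (limma, adjusted p = 0.0809), in a range of 1.79e-05 to 0.0809 over its alternatives. In those contrasts 1.68% of all genes were called higher and 1.06% lower in Ikaros-Zn4-/-, and 3.21% higher and 2.82% lower in WT cells.

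The same libraries also moved in Cd68, a lysosomal protein abundant in myeloid cells, from a list of 11 myeloid markers of which 4 were measured. It rose by 2.39 at 30 min (SE 0.33, limma, adjusted p = 0.0072), while the other 3, Lyz2, Itgam and Cst3, were not called at 30 min. The summed level of the 4 was 31.6 to 33.4 RPKM (0 min), 59.4 to 94.5 RPKM (30 min) and 54.7 RPKM (120 min) in Ikaros-Zn4-/- libraries. In WT libraries it was 30.7 to 31.1 RPKM, 50.0 to 52.6 RPKM and 28.8 RPKM at the same times. Lyz2, the lysozyme of macrophages and neutrophils, had 14.1 RPKM in replicate 1 of the Ikaros-Zn4-/- cells at 30 min and 0.226 to 6.84 RPKM in the other 9 libraries. That library also had the highest sum of the 4 markers, 94.5 RPKM, of which Cd68 made up 60.4 RPKM, against 39.7 RPKM in replicate 2. Cst3 and Itgam hardly differed between these replicates, at 18.6 against 17.4 RPKM and 1.46 against 1.47 RPKM. Unlike Cd68, Cst3 was lower at 120 min than at 0 min, by 0.97 (SE 0.16, limma, adjusted p = 0.00054). The part of myeloid RNA in the Tnf and Tnfsf11 values was not tested.

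Tnfsf11 had the widest range of the 6 as a fold, from near the detection limit in resting WT cells to a level above Tnf in the mutant library at 120 min. It had 3.12 and 2.78 RPKM (0 min), 21.3 and 8.53 RPKM (30 min) and 72.5 RPKM (120 min) in Ikaros-Zn4-/- cells. It had 0.125 and 0.0503 RPKM (0 min), 1.93 and 1.31 RPKM (30 min) and 7.16 RPKM (120 min) in WT cells. Times did not overlap within a genotype, and the 2 Ikaros-Zn4-/- libraries at 30 min lay far apart. The higher, replicate 1, also had the highest sum of myeloid markers, while Tnf was lower there (68.1 against 108 RPKM in replicate 2). Replicate 1 was the higher in every other group with 2 libraries as well, both for Tnfsf11 and for Cd68. The WT values at 0 min rest on 3 and 1 reads, those at 30 min on 50 and 17, and that at 120 min on 168. In Ikaros-Zn4-/- cells the gene had 93 and 28 reads at 0 min, 487 and 110 at 30 min and 1491 at 120 min. Tnfsf11 rose by 1.70 at 30 min (SE 0.26, limma, adjusted p = 0.0102), by 3.88 at 120 min against 0 min (SE 0.32, adjusted p = 0.000119) and by 2.21 from 30 to 120 min (SE 0.32, adjusted p = 0.00226). Within 1 genotype the 30 min change was 2.00 in Ikaros-Zn4-/- (SE 0.37, limma, adjusted p = 0.0487) and 1.41 in WT cells (SE 0.37, adjusted p = 0.0836). The mutant call was lost without 8 of the 10 libraries in turn, each left out alone, and under 4 other settings, with adjusted p of 0.00686 to 0.205 over all its alternatives. The WT change was called with a pseudocount of 0.1 (limma, adjusted p = 0.0171), with the replicate block (0.042), with limma-voom (0.037) and without either Ikaros-Zn4-/- 30 min library (0.0245 and 0.0239), in a range of 0.0171 to 0.297. In Ikaros-Zn4-/- 30 min replicate 1, Lyz2 and Cd68 stood out, but not Cst3 or Itgam. Without that library the mutant change was 1.27 on the deposited scale, against 1.88 with it. The change over both genotypes was then 1.26, against 1.57.

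Since the log2(RPKM + 1) scale understates changes of low genes, Tnfsf11 was also given as a ratio of recovered reads per library total, with 95% exact intervals that cover counting error only. The ratio of 30 min over 0 min was 5.50 (4.52 to 6.74) in Ikaros-Zn4-/- and 18.9 (7.04 to 71.3) in WT cells. At 120 min over 0 min it was 23.9 (19.8 to 29.0) in Ikaros-Zn4-/- and 78.5 (30.1 to 292) in WT cells. On the ratio scale the WT response was thus the larger, while on the log2(RPKM + 1) scale the mutant change was, and the test of the difference between responses is given with the genotype comparison.

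Tnfsf8, the CD30 ligand, went the other way. The Ikaros-Zn4-/- libraries had 13.7 and 19.8 RPKM (0 min), 7.21 and 11.2 RPKM (30 min) and 2.68 RPKM (120 min). The WT libraries had 9.002 and 11.9 RPKM (0 min), 4.96 and 8.17 RPKM (30 min) and 0.726 RPKM (120 min). Within each genotype both 30 min libraries lay below both 0 min libraries, and the 120 min library lay below all of them. Tnfsf8 fell by 2.17 at 120 min against 0 min (SE 0.26, limma, adjusted p = 0.000236) and by 1.55 from 30 to 120 min (SE 0.26, adjusted p = 0.00169). The change at 30 min, -0.58 (SE 0.21, limma, adjusted p = 0.0577), was not called. It was called with the replicate block (limma, adjusted p = 0.00428), with limma-voom on recovered reads (0.0102) and with a filter of 2 RPKM (0.0469), in a range of 0.00428 to 0.176 over its alternatives. In reads the 120 min level was 0.176 of that at 0 min in Ikaros-Zn4-/- (95% counting interval 0.141 to 0.218) and 0.0702 in WT cells (0.0467 to 0.102).

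Ltb was the most highly expressed of the 6 and had the smallest change among the 5 genes called at 120 min against 0 min. In Ikaros-Zn4-/- cells it had 303 and 425 RPKM (0 min), 297 and 409.9 RPKM (30 min) and 223 RPKM (120 min). In WT cells it had 320.5 and 405 RPKM (0 min), 219 and 248.7 RPKM (30 min) and 204 RPKM (120 min). The mutant libraries at 0 and 30 min overlapped, and the WT ones did not. Ltb fell by 0.43 at 120 min against 0 min (SE 0.21, limma, adjusted p = 0.0178). That call was lost with median ratio scaling (limma, adjusted p = 0.119), without WT 0 min replicate 2 (0.0514) and in each genotype alone (0.0967 in Ikaros-Zn4-/- and 0.0611 in WT), in a range of 0.000506 to 0.119 over all its alternatives. The changes at 30 min, -0.20 (SE 0.17, limma, adjusted p = 0.211), and from 30 to 120 min, -0.20 (SE 0.21, adjusted p = 0.14), were not called. Both were called with the replicate block (limma, adjusted p = 0.0257 and 0.00404), and that at 30 min also after quantile normalization (0.0312). Over all alternatives the adjusted p ranged from 0.0257 to 0.454 at 30 min and from 0.00404 to 0.672 from 30 to 120 min.

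Ccl4, which encodes the chemokine MIP-1 beta, stayed near 1 RPKM at 0 and 30 min. It had 0.909 and 1.35 RPKM (0 min), 1.18 and 1.84 RPKM (30 min) and 20.2 RPKM (120 min) in Ikaros-Zn4-/- cells. It had 1.27 and 1.02 RPKM (0 min), 1.18 and 1.56 RPKM (30 min) and 2.74 RPKM (120 min) in WT cells. Both 120 min libraries lay above the other 8, and all values at 0 and 30 min rest on 4 to 9 reads. The 120 min values rest on 123 reads in the Ikaros-Zn4-/- and 19 in the WT library. Ccl4 rose by 2.38 at 120 min against 0 min (SE 0.18, limma, adjusted p = 0.000121) and by 2.09 from 30 to 120 min (SE 0.18, adjusted p = 0.000346).

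The change of Ccl4 at 120 min was also taken in each genotype, in an alternative chosen after seeing the data that rests on 1 library at 120 min, and the difference between the genotypes' changes was not tested. On the deposited scale the change against 0 min was 3.33 in Ikaros-Zn4-/- and 0.80 in WT cells, and that against 30 min was 3.09 in Ikaros-Zn4-/- and 0.66 in WT cells. The call from 30 to 120 min was lost in WT cells alone (limma, adjusted p = 0.102), in a range of 0.000182 to 0.102 over its alternatives. In reads the ratio of 120 min over 0 min was 19.9 in Ikaros-Zn4-/- (95% counting interval 11.0 to 39.5) and 2.37 in WT cells (1.14 to 5.01).

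Ccl5, which encodes RANTES, was low throughout, at 8 to 24 reads per library. The Ikaros-Zn4-/- libraries had 1.87 and 2.08 RPKM (0 min), 2.44 and 1.81 RPKM (30 min) and 0.905 RPKM (120 min). The WT libraries had 1.07 and 1.64 RPKM (0 min), 2.16 and 1.43 RPKM (30 min) and 1.09 RPKM (120 min). Libraries at 0 and 30 min overlapped in both genotypes. No contrast over time was called, with changes of 0.29 at 30 min (SE 0.16, limma, adjusted p = 0.524), -0.09 at 120 min against 0 min (SE 0.20, adjusted p = 0.116) and -0.34 from 30 to 120 min (SE 0.20, adjusted p = 0.0513). The last was called with a pseudocount of 0.1 (limma, adjusted p = 0.042), with no filter (0.048) and without WT 30 min replicate 2 (0.0475), in a range of 0.042 to 0.354 over its alternatives. At this depth small changes of Ccl5 were not detectable.

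**Figure D2:**
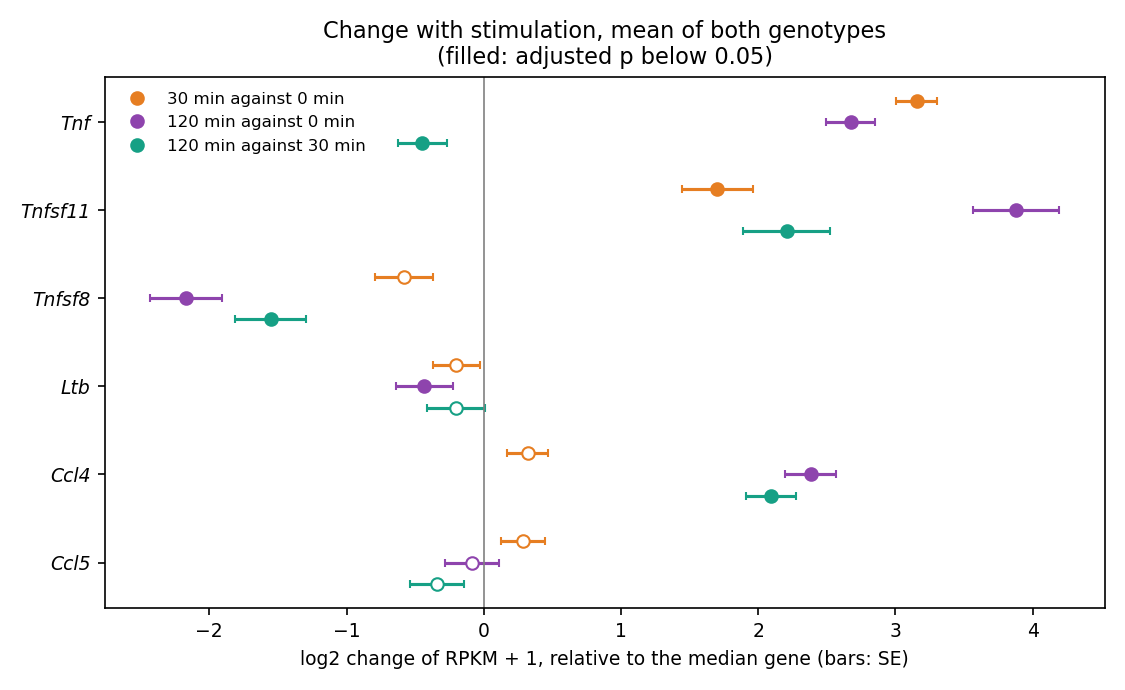
Log2 change of RPKM + 1 relative to the median gene (horizontal axis, bars are SE) for each gene, mean of both genotypes, for the 3 pairs of times. Filled points passed adjusted p 0.05 on the deposited scale. Tnf lies at 3.15 at 30 min, Tnfsf11 at 3.88 and Tnfsf8 at -2.17 at 120 min against 0 min.

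Ranked by mean level, Ltb was highest in all 6 groups, and Ccl4, Ccl5 or Tnfsf11 was lowest in 5 of them, with Tnfsf8 lowest in the WT library at 120 min. In resting Ikaros-Zn4-/- cells the order of mean RPKM was Ltb at 364 ± 86.0, Tnfsf8 at 16.7 ± 4.29, Tnf at 9.79 ± 0.712, Tnfsf11 at 2.95 ± 0.240, Ccl5 at 1.98 ± 0.146 and Ccl4 at 1.13 ± 0.309 (SD, n = 2). In resting WT cells it was Ltb at 363 ± 59.9, Tnfsf8 at 10.5 ± 2.08, Tnf at 6.36 ± 0.163, Ccl5 at 1.35 ± 0.406, Ccl4 at 1.15 ± 0.175 and Tnfsf11 at 0.0876 ± 0.0528 (SD, n = 2). Ccl5 and Ccl4 in WT cells overlapped between their libraries, and the other neighbours in these 2 orders did not. After 120 min the Ikaros-Zn4-/- library had Tnfsf11 next to Ltb at 72.5 RPKM, above Tnf at 48.9 RPKM, while the WT library had Tnf next to Ltb at 40.8 RPKM, above Tnfsf11 at 7.16 RPKM.

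The genotypes differed most in Tnfsf11. Over all times, in a model of genotype and time, 2 of 6 genes were higher in Ikaros-Zn4-/- cells and 0 lower, where 6.19% of all genes were higher and 3.24% lower. Genotype differences are log2(RPKM + 1) on the deposited scale, where the median gene differed by 0.01 to 0.03. Tnfsf11 was higher by 2.37 (SE 0.26, limma, adjusted p = 0.000433), and the difference of Tnf was 0.48 (SE 0.12, adjusted p = 0.0396). The Tnfsf11 call held under every alternative run, with differences of 2.17 to 3.49. The Tnf call was lost without 8 of the 10 libraries in turn, each left out alone, with a highest adjusted p of 0.103 and a lowest of 0.0147. Tnfsf8 differed by 0.64 (SE 0.19, limma, adjusted p = 0.0631), Ccl4 by 0.52 (SE 0.35, adjusted p = 0.416), Ltb by 0.25 (SE 0.16, adjusted p = 0.395) and Ccl5 by 0.18 (SE 0.14, adjusted p = 0.505), none of them called. The Tnfsf8 difference was called under 5 alternatives, which were quantile normalization (limma, adjusted p = 0.0471), the replicate block (0.00806), limma-voom (0.0338) and leaving out WT 30 min replicate 2 (0.0358) or Ikaros-Zn4-/- 30 min replicate 1 (0.0373), in a range of 0.00806 to 0.178.

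Before stimulation, 0 of 6 genes were called between genotypes with limma, against 1.92% of all genes higher and 0.557% lower. Tnf and Tnfsf11 had an unadjusted p below 0.05, and limma-voom on recovered reads called 1 of 6. Tnfsf11 differed by 1.86 (SE 0.37, limma, adjusted p = 0.0539), close to the threshold, and 5 of 8 alternative settings called it, with adjusted p of 0.00704 to 0.083. With 1 library left out in turn the difference was 1.80 to 1.92, and most of those 10 fits did not call it. Its ratio of reads, Ikaros-Zn4-/- over WT, was 33.3 with a 95% counting interval of 12.7 to 124. Both Ikaros-Zn4-/- libraries lay above both WT libraries for Tnf, Tnfsf11, Tnfsf8 and Ccl5, 4 of 6 genes, where 24.9% of all genes did so.

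At 30 min 1 of 6 genes was called higher in Ikaros-Zn4-/- cells, against 2.01% of all genes, and 0 lower, against 0.606%. Tnfsf11 differed by 2.49 (SE 0.37, limma, adjusted p = 0.0189), with a ratio of reads of 9.70 (95% counting interval 7.52 to 12.7). This call was lost without WT 0 min replicate 2 (limma, adjusted p = 0.0507), without either WT 30 min replicate (0.0949 without replicate 1 and 0.154 without replicate 2) and with the spread of the compared groups alone (0.152), in a range of 0.00236 to 0.154. Tnf, Tnfsf11 and Ltb, 3 of 6 genes, had both Ikaros-Zn4-/- libraries above both WT libraries, where 25.6% of all genes did so. Ltb differed by 0.58 (SE 0.24, limma, adjusted p = 0.284), and the difference of Tnf was 0.52 (SE 0.21, adjusted p = 0.257), neither called. The Ltb difference was called with the replicate block (limma, adjusted p = 0.044). That of Tnf ranged from 0.20 to 0.85 with 1 library left out, and was highest without Ikaros-Zn4-/- 30 min replicate 1.

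At 120 min each genotype has 1 library, so the genotype values have no replicate check. They were not tested, and their ratios compare those libraries. Tnfsf11, Ccl4, Tnfsf8, Tnf and Ltb were higher in the Ikaros-Zn4-/- library, and Ccl5 was lower. The share of all genes higher in that library was not counted, so no weight is placed on these directions. For Ltb the ratio of RPKM was 1.09. The ratio of reads was 10.1 for Tnfsf11 (95% counting interval 8.63 to 11.9), 7.38 for Ccl4 (4.53 to 12.7), 3.70 for Tnfsf8 (2.42 to 5.82) and 1.20 for Tnf (1.08 to 1.33). For Ccl5 it was 0.830 (0.290 to 2.26), an interval that includes 1. At 0 and 30 min the Ccl4 ratios were 0.880 (0.376 to 2.01) and 1.09 (0.496 to 2.39), intervals that include 1.

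**Figure D3:**
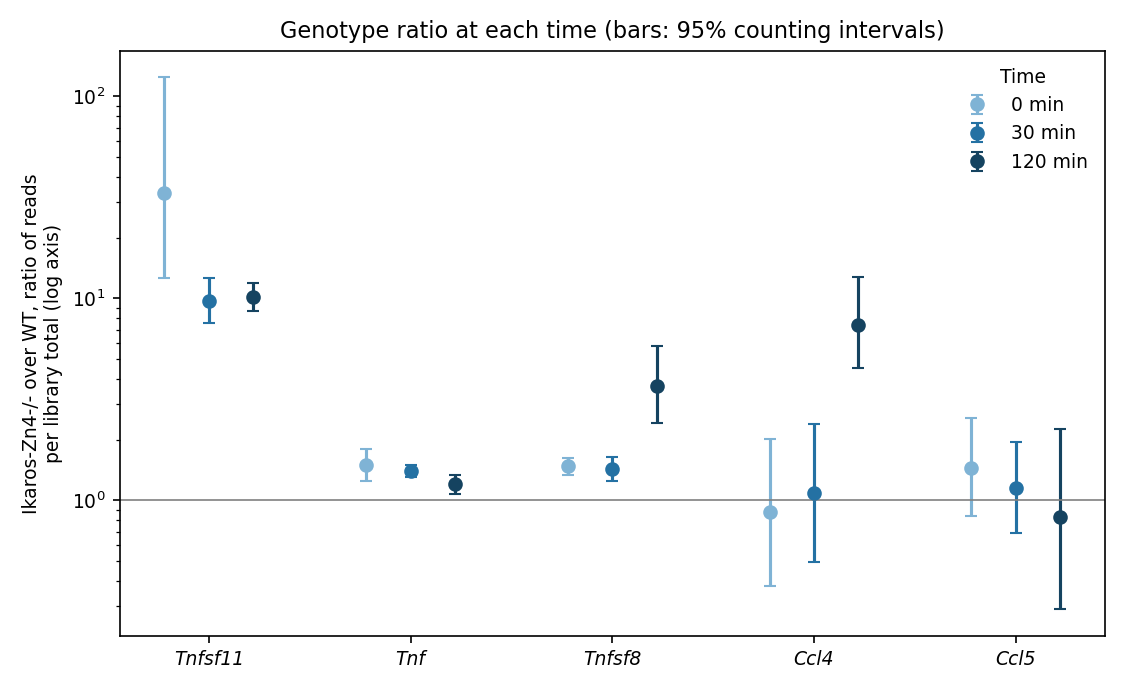
Ratio of reads per library total, Ikaros-Zn4-/- over WT (vertical log axis, bars are 95% counting intervals), at 0, 30 and 120 min for 5 genes whose reads were recovered. Tnfsf11 lies at 33.3, 9.70 and 10.1, and Ccl4 at 0.880, 1.09 and 7.38.

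Whether the genotypes responded differently by 30 min was tested as an interaction. With limma 0 of 6 genes and 0 of 12203 genes were called, 656 of the latter had an unadjusted p below 0.05, and limma-voom also called 0. The interaction of Tnf was -0.03 (SE 0.29, limma, adjusted p = 0.993) and that of Ltb 0.58 (SE 0.34, adjusted p = 0.892). The interaction of Tnfsf11 was 0.63 (SE 0.52, limma, adjusted p = 0.918). Its sign turned to -1.04 with a pseudocount of 0.1 (adjusted p = 0.899) and to -1.75 with limma-voom (adjusted p = 0.925), in a range of 0.667 to 1 over all its alternatives. The direction of a difference in the Tnfsf11 response thus depended on the scale.

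Genes of effector, memory and natural killer (NK) cells moved with the genotype in the same libraries. Of 23 such markers 16 were measured, and over all times 9 were higher in Ikaros-Zn4-/- cells and 0 lower, where 6.19% of all genes were higher and 3.24% lower. The other 7 were not called, with differences between -0.54 for Cxcr6, a chemokine receptor, and 0.58 for S100a4, a calcium-binding protein, among them Gzmb (-0.026) and Prf1 (0.0087), which encode granzyme B and perforin. Among those called, Gzmm, a cytotoxic granule protease, was at 37.6 to 82.4 RPKM in Ikaros-Zn4-/- and 0.611 to 3.82 RPKM in WT libraries. Cxcr3, a chemokine receptor of effector and memory T cells, was at 12.6 to 53.7 RPKM in Ikaros-Zn4-/- and 0.660 to 4.30 RPKM in WT libraries. Eomes, a transcription factor of memory CD8+ and NK cells, was at 10.6 to 28.6 RPKM in Ikaros-Zn4-/- and 1.90 to 9.39 RPKM in WT libraries. Nkg7, also called, differed less, by 0.77 (SE 0.16, limma, adjusted p = 0.0144). It was at 55.9 to 402 RPKM in Ikaros-Zn4-/- and 19.1 to 275 RPKM in WT libraries, and fell by 2.92 at 120 min (SE 0.15, limma, adjusted p = 3.23e-05). At 120 min against 0 min, 1 of the 16 was higher and 10 were lower, against 19.3% and 40.4% of all genes. The summed level of the 16 was 1282 to 1283 RPKM (0 min), 1037 to 1209 RPKM (30 min) and 485 RPKM (120 min) in Ikaros-Zn4-/- libraries. In WT libraries it was 829 to 880 RPKM, 692 to 779 RPKM and 316 RPKM at the same times. Gzma, another granule protease, was listed at 0 in 2 WT libraries and at 2.10 to 9.28 RPKM in the Ikaros-Zn4-/- libraries, while Cd44, whose protein the sort selected against, was at 0.731 to 1.11 RPKM in Ikaros-Zn4-/- and 0.893 to 1.75 RPKM in WT libraries. The part of such cells in the Tnfsf11, Tnf and Ccl4 differences was not tested.

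Other markers were fewer. Of 8 B cell markers 2 were measured, and their summed level was 4.47 to 10.01 RPKM in Ikaros-Zn4-/- and 6.98 to 15.1 RPKM in WT libraries. Cd79a and Cd79b encode the signalling chains of the B cell receptor, and they moved in opposite directions at 120 min against 0 min. Cd79a rose by 2.58 (SE 0.18, limma, adjusted p = 8.45e-05), with 6.26 RPKM in the Ikaros-Zn4-/- and 3.79 RPKM in the WT library at 120 min and 0.152 to 0.309 RPKM in the 4 libraries at 0 min. Cd79b fell by 0.78 at 30 min (SE 0.14, limma, adjusted p = 0.00802) and by 1.22 at 120 min (SE 0.17, adjusted p = 0.000282), and was lower in Ikaros-Zn4-/- cells over all times, at -0.83 (SE 0.12, adjusted p = 0.00239). Of 6 markers of CD4+ and regulatory T cells 3 were measured, and Ikzf2, a relative of Ikaros found in regulatory T cells, was higher in Ikaros-Zn4-/- cells over all times by 1.19 (SE 0.11, limma, adjusted p = 0.000161) and rose by 1.57 at 120 min (SE 0.14, adjusted p = 0.000283). Ctla4, an inhibitory receptor of regulatory and activated T cells, rose by 2.19 at 30 min (SE 0.47, limma, adjusted p = 0.0277), when Tnf rose too, and fell by 1.57 from 30 to 120 min (SE 0.57, adjusted p = 0.0375). It had 13.9 and 4.38 RPKM (0 min), 34.7 and 29.3 RPKM (30 min) and 13.9 RPKM (120 min) in Ikaros-Zn4-/- cells, against 13.5 and 2.75 RPKM, 33.3 and 33.8 RPKM and 5.40 RPKM in WT cells at the same times. Itgam, an integrin of myeloid and NK cells, was also higher by 0.90 (SE 0.13, limma, adjusted p = 0.00272). The part of B cells and of CD4+ or regulatory T cells in the members' values was not tested.

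Among other genes of the ligand families few were measured. Of 14 other TNF family ligands 5 were in the table and 4 were tested, of which 1 rose and 1 fell at 30 min, and 1 rose and 2 fell at 120 min, where 6.51% and 12.5% of all genes were higher and lower at 30 min and 19.3% and 40.4% at 120 min. Tnfsf9, the ligand of the costimulatory receptor 4-1BB, rose by 0.83 at 30 min (SE 0.13, limma, adjusted p = 0.0159) and by 1.77 at 120 min (SE 0.16, adjusted p = 0.000309). Tnfsf10, which encodes the death ligand TRAIL, fell by 0.56 at 30 min (SE 0.16, limma, adjusted p = 0.0284) and by 1.77 at 120 min (SE 0.19, adjusted p = 0.000145), and was higher in Ikaros-Zn4-/- than WT cells over all times by 0.53 (SE 0.13, adjusted p = 0.0343). Lta, the partner of Ltb, fell by 0.70 at 120 min (SE 0.16, limma, adjusted p = 0.00148). Its level at 120 min was 4.16 RPKM in the Ikaros-Zn4-/- and 4.68 RPKM in the WT library, against 10.4 to 11.2 RPKM in Ikaros-Zn4-/- and 9.03 to 9.36 RPKM in WT libraries at 0 min. Tnfsf14, which encodes LIGHT, was not called in any of these contrasts. Neither Ltb nor Lta, the neighbours of Tnf on chromosome 17, was called higher at 30 or 120 min.

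Of 18 other CC chemokines 2 were measured. Ccl3, which lies beside Ccl4 and encodes MIP-1 alpha, rose by 2.58 at 120 min (SE 0.43, limma, adjusted p = 0.00343). In Ikaros-Zn4-/- cells it had 0.0979 and 2.03 RPKM (0 min), 0.893 and 0 RPKM (30 min) and 13.9 RPKM (120 min). In WT cells it had 0.122 and 0 RPKM (0 min), 0.338 and 0.224 RPKM (30 min) and 1.99 RPKM (120 min). Each 120 min library was the highest of its genotype, and 1 Ikaros-Zn4-/- library at 0 min was as high as the WT library at 120 min. The ratio of reads at 120 min, Ikaros-Zn4-/- over WT, was 6.99 (95% counting interval 4.09 to 12.7, from 98 and 16 reads). Ccl25, a thymic and gut chemokine, was not called.

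Of 9 receptors of the 6 ligands and chemokines, the 2 TNF receptors were measured. Tnfrsf1b, which encodes TNFR2, the receptor form typical of lymphocytes, had 29.6 and 28.1 RPKM (0 min), 27.6 and 21.5 RPKM (30 min) and 95.8 RPKM (120 min) in Ikaros-Zn4-/- cells. It had 16.6 and 15.8 RPKM (0 min), 24.3 and 18.1 RPKM (30 min) and 83.7 RPKM (120 min) in WT cells. It was not called at 30 min (0.19, SE 0.13, limma, adjusted p = 0.761) and rose by 2.31 at 120 min (SE 0.15, adjusted p = 7.6e-05). Tnfrsf1a, which encodes TNFR1, the widely expressed receptor with a death domain, rose by 0.85 at 120 min (SE 0.13, limma, adjusted p = 0.00897). Neither was called between genotypes over all times.

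Of 20 other TNF receptor family genes 13 were measured, with 2 higher and 3 lower at 30 min, 5 higher and 6 lower at 120 min, and 2 higher and 4 lower in Ikaros-Zn4-/- cells. Over all genes 6.51% were higher and 12.5% lower at 30 min, 19.3% higher and 40.4% lower at 120 min, and 6.19% higher and 3.24% lower in Ikaros-Zn4-/- cells. Tnfrsf12a, the receptor of TWEAK, rose by 2.21 at 30 min (SE 0.21, limma, adjusted p = 0.00255). Tnfrsf14, which encodes HVEM, the receptor of LIGHT, fell by 1.18 at 30 min (SE 0.10, limma, adjusted p = 0.00112) and by 1.68 at 120 min (SE 0.13, adjusted p = 4.5e-05). Cd27, a costimulatory receptor of naive T cells, fell by 1.18 at 120 min (SE 0.14, limma, adjusted p = 0.000163), and Tnfrsf13b, which encodes TACI, fell by 1.99 (SE 0.20, adjusted p = 0.000118). Of 23 genes of TNF receptor signalling, 2 rose and 5 fell at 30 min, and 9 rose and 9 fell at 120 min, and 1 was higher in Ikaros-Zn4-/- cells over all times, to be read against the same shares of all genes. Map3k14, the kinase of the noncanonical NF-kB pathway used by the receptors of Ltb and RANKL, rose by 1.77 at 120 min (SE 0.10, limma, adjusted p = 4.9e-05). The TNFR1 adaptor Tradd fell by 1.47 (SE 0.18, limma, adjusted p = 0.00019), Rbck1, part of the linear ubiquitin ligase, by 1.72 (SE 0.13, adjusted p = 4.4e-05) and Tab1, an activator of the kinase TAK1, by 1.27 (SE 0.12, adjusted p = 7.1e-05).

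Some genes whose products bind AU-rich or stem-loop elements and control mRNA decay rose at the same times as Tnf. Of 10 such genes 5 rose and 0 fell at 30 min, and 5 rose and 1 fell at 120 min, where 6.51% and 12.5% of all genes were higher and lower at 30 min and 19.3% and 40.4% at 120 min. Zc3h12a and Rc3h1 were in both sets of 5. Zfp36, which encodes tristetraprolin, and its relatives Zfp36l1 and Zfp36l2 rose at 30 min by 1.23 (SE 0.20, limma, adjusted p = 0.0139), 1.57 (SE 0.26, adjusted p = 0.0132) and 0.95 (SE 0.13, adjusted p = 0.00929). Their rises were called in Ikaros-Zn4-/- cells (limma, adjusted p = 0.0381, 0.0417 and 0.0447) and not in WT cells (0.231, 0.159 and 0.0741), and no interaction was called. At 0 min Zfp36 had 196 and 222 RPKM in Ikaros-Zn4-/- and 526 and 323 RPKM in WT cells. At 30 min it had 526 and 775 RPKM in Ikaros-Zn4-/- and 656 and 579 RPKM in WT cells. None of these 3 was called at 120 min against 0 min, and from 30 to 120 min Zfp36 fell by 1.18 (SE 0.24, limma, adjusted p = 0.00339) and Zfp36l1 by 1.02 (SE 0.31, adjusted p = 0.0153). Elavl1, which encodes the stabilizing protein HuR, rose by 1.00 at 120 min (SE 0.14, limma, adjusted p = 0.00436). The 1 that fell, Hnrnpd, which encodes AUF1, did so on the deposited scale only, at about 0 relative to the median gene. Zc3h12a, which encodes the RNase regnase-1, had 12.7 and 14.2 RPKM (0 min), 91.0 and 65.8 RPKM (30 min) and 76.3 RPKM (120 min) in Ikaros-Zn4-/- cells. The WT libraries had 19.8 and 16.2 RPKM (0 min), 95.6 and 93.8 RPKM (30 min) and 90.9 RPKM (120 min). It rose by 2.52 at 30 min (SE 0.13, limma, adjusted p = 0.000438) and by 2.67 at 120 min (SE 0.16, adjusted p = 5e-05). Rc3h1, which encodes roquin-1, rose by 0.79 at 30 min (SE 0.08, limma, adjusted p = 0.00492) and by 2.27 at 120 min (SE 0.10, adjusted p = 3.7e-05), and its relative Rc3h2 rose by 1.33 at 120 min (SE 0.14, adjusted p = 0.000894). Zc3h12d, a relative of Zc3h12a, rose by 0.88 at 120 min (SE 0.15, limma, adjusted p = 0.0135) and was the 1 gene of the list called between genotypes, higher in Ikaros-Zn4-/- cells by 0.68 (SE 0.10, adjusted p = 0.00267). Of 5 genes of ligand shedding 3 were measured. Adam17, the protease that releases TNF, was not called at 30 or 120 min, nor was Adam10, while Rhbdf2, which carries ADAM17 to the cell surface, rose by 1.71 at 120 min (SE 0.18, limma, adjusted p = 0.00055).

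**Figure D4:**
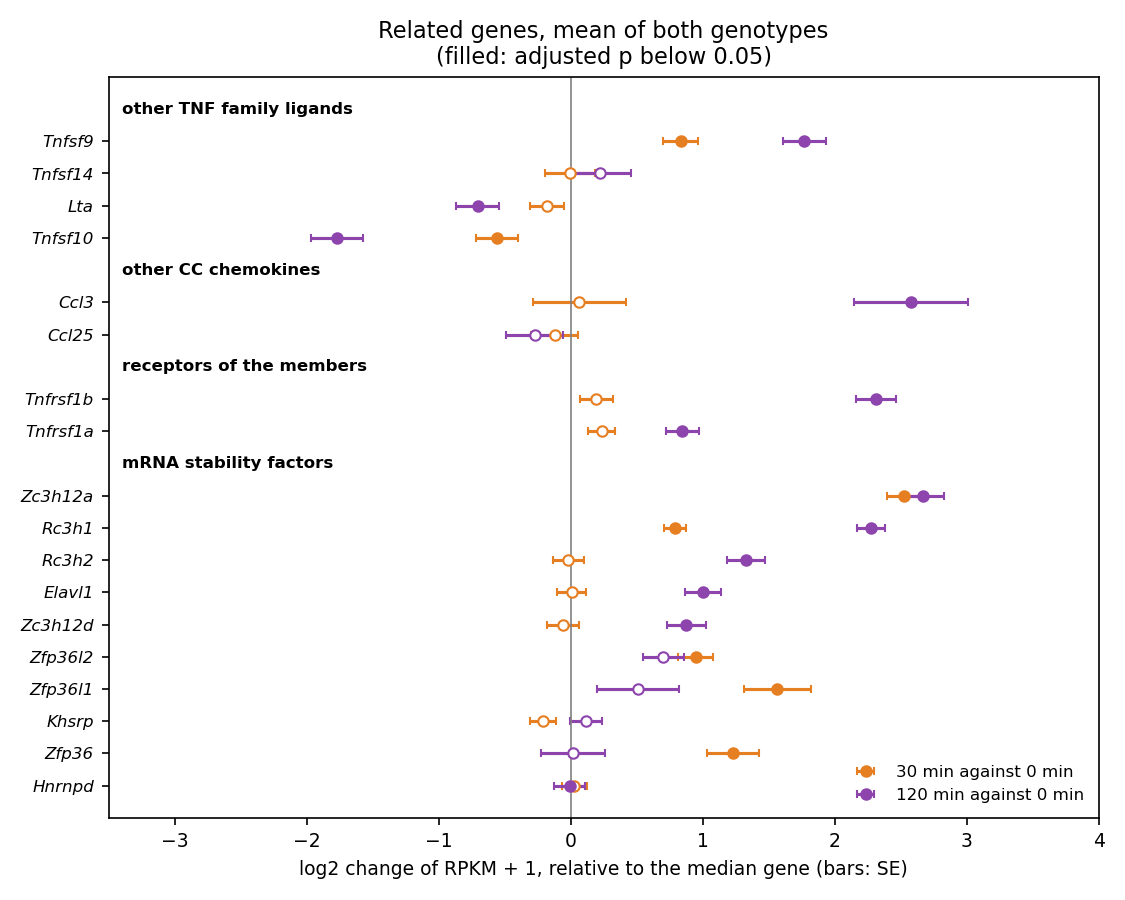
Log2 change of RPKM + 1 relative to the median gene (bars are SE) at 30 and 120 min against 0 min for related ligands, chemokines, receptors and mRNA stability factors. Filled points passed adjusted p 0.05. Zc3h12a lies at 2.52 at 30 min and 2.67 at 120 min, while Tnfrsf1b lies at 0.19 and 2.31.

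The genes whose profiles over the 10 libraries lay closest to each member were found among 6978 genes of at least 5 RPKM on average, by the root mean square difference of log2(RPKM + 1) after centring. Closest to Tnf were Sertad1, at 0.37, RP23-16N14.5, at 0.38, and Errfi1, at 0.48. Closest to Tnfsf8 were Cd52 (0.22), Ly6e (0.22) and Usp18 (0.24), and closest to Ltb were Plekho1 (0.091), Coro1b (0.12) and Mrpl20 (0.12). For Ccl4 they were Tnip1 (0.42), Taf4b (0.47) and Ralgds (0.48), and for Ccl5 Slc35e1 (0.14), Wdr36 (0.16) and Med27 (0.16). For Tnfsf11 they were Emp1 (0.76), Tbc1d4 (0.87) and Odc1 (0.92). These distances grow with a member's own spread. Divided by the root mean square of the member's own profile, the nearest gene lay at 0.26 for Tnf, 0.22 for Tnfsf8, 0.42 for Tnfsf11, 0.24 for Ltb, 0.43 for Ccl4 and 0.52 for Ccl5. Emp1, a membrane protein of epithelia, had 2.22 and 1.46 RPKM (0 min), 19.1 and 13.0 RPKM (30 min) and 42.7 RPKM (120 min) in Ikaros-Zn4-/- cells. In WT cells Emp1 had 0.520 and 0.222 RPKM (0 min), 7.79 and 5.58 RPKM (30 min) and 8.07 RPKM (120 min), and its Ikaros-Zn4-/- libraries stood above the WT ones at every time.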

How the data were processed

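RNA was measured in 10 libraries of sorted CD8+ T cells in 6 groups. The authors deposited 1 table of RPKM values for 12637 genes, in which each gene's highest group mean is 1 RPKM or more. TopHat2 2.0.12, TopHat, HTSeq 0.6.1, mm10 and GRCm38 are named per the submitters' processing notes, with no role or annotation stated. The TruSeq RNA v2 kit used for single-end libraries, per the labels, does not mark strand, so overlapping antisense reads cannot be told apart.

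Groups came from the labels, and the 6 genes were taken by name. The members and gene lists were chosen with earlier results of these data known. From each list, up to 4 genes with the smallest adjusted p over the 30 min, 120 min and genotype contrasts were to be named, plus the receptors, and the 3 genes nearest each member. Ikzf1 is the mutated gene. Gzma, Cd44, Cxcr6, S100a4, Gzmb, Prf1, Zfp36, Zfp36l1, Zfp36l2, Elavl1 and Hnrnpd fall outside this rule and were chosen after their values were seen. Of 12637 genes, the 12203 with a mean of at least 0.5 RPKM were fitted with limma 3.58.1 (R 4.3.3) on log2(RPKM + 1), with 1 mean per group over 10 libraries (4 residual degrees of freedom), or genotype plus time for the difference over all times. Tests were two-sided. Reads were recovered from RPKM with GENCODE M21 exon lengths, and 65.8% to 71.1% of values under 200 reads came within 0.01 of a whole number. They gave the depths (4.504 to 13.3 M reads), the counting intervals and the limma-voom alternative. Alternatives changed the pseudocount, filter, scaling, spread, replicate block and left-out library. Tables and figures used Python 3.11.15, pandas 2.3.3, scipy 1.17.1 and matplotlib 3.10.9. The fits were tested on simulated data.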

Additional observations from a re-analysis of the deposited data

How the results depend on the processing

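The calls against 0 min over both genotypes of Tnf and Tnfsf11 (30 and 120 min) and of Tnfsf8 and Ccl4 (120 min), and the genotype difference of Tnfsf11 over all times, held in every alternative run. Over the 6 genes and all contrasts, 417 values under other settings held 9 lost calls, 24 gained and 4 reversed directions, and 516 values with 1 library left out held 21 lost, 8 gained and 20 reversed. In 24 values from 1 genotype alone at 120 min, chosen after seeing the data, 4 calls were lost. The cause of these shifts was not tested.

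With the spread from the compared groups only, 0 of 6 genes and 0 of all genes were called at 30 min in Ikaros-Zn4-/- (2 and 334 in the fit reported), 233 genes at 30 min in WT (against 736), 1 gene of 6 and 96 of all genes between genotypes at 0 min (against 0 and 302), and 0 of 6 and 80 at 30 min (against 1 and 319). Limma-voom on recovered reads called 3 of 6 and 1814 genes at 30 min in WT, 973 genes at 30 min in Ikaros-Zn4-/-, 1 of 6 and 635 between genotypes at 0 min and 612 at 30 min. With a pseudocount of 0.1 the number of members called was 2 at 30 min in WT (against 1), 1 at 30 min in Ikaros-Zn4-/- and 1 between genotypes at 0 min. It was also 1 at 30 min in Ikaros-Zn4-/- with no filter and with median ratio scaling, and 1 between genotypes at 0 min with a mean of at least 2 RPKM. In WT alone 2 of 6 and 3337 genes were called from 30 to 120 min (against 4 and 5885).

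A block for the replicate number raised the calls at 30 min to 4 of 6 and 3484 genes over both genotypes (against 2 and 2317), 4 of 6 and 1891 in WT and 961 genes in Ikaros-Zn4-/-. With the block 1 of 6 was called between genotypes at 0 min, and 2 of 6 and 549 genes at 30 min. The difference between replicate 1 and 2 correlated at r of 0.160 to 0.230 over 12203 genes in 5 of 6 pairs of groups and at 0.0369 in the other, WT at 30 min with Ikaros-Zn4-/- at 0 min. Not every pair was above 0.1, the cutoff used, so the numbers were not taken to pair the samples. All 6 correlations were positive, and the fits without the block take no account of a shift shared by libraries of 1 replicate number. Over both genotypes the block added calls of Tnfsf8 and Ltb at 30 min and of Ltb from 30 to 120 min, and it added a call of Tnfsf8 between genotypes over all times.

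Directions that reversed were all of uncalled values. The log2 change of Ccl5 at 120 min was 0.016 after quantile normalization (limma, adjusted p = 0.952), that of Ltb at 30 min in Ikaros-Zn4-/- 0.098 with median ratio scaling (adjusted p = 0.814), and the Tnfsf11 interaction -1.04 with a pseudocount of 0.1 (adjusted p = 0.899) and -1.75 with limma-voom (adjusted p = 0.925). With 1 library left out the Ltb and Ccl5 changes at 30 min in Ikaros-Zn4-/- ranged from -0.28 to 0.20 and from -0.085 to 0.21. The genotype differences ranged from -0.25 to 0.24 for Ltb and -0.17 to 0.13 for Ccl4 at 0 min, and from -0.11 to 0.27 for Ccl4 and -0.022 to 0.35 for Ccl5 at 30 min. The interactions ranged from -0.36 to 0.30 for Tnf, -0.50 to 0.13 for Tnfsf8, -0.094 to 0.28 for Ccl4 and -0.37 to 0.0045 for Ccl5.

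With 1 library left out, the members called and all genes called ranged over 2 to 2 and 779 to 2316 at 30 min, 4 to 5 and 6606 to 7385 at 120 min, 4 to 4 and 5038 to 5769 from 30 to 120 min, 1 to 2 and 13 to 744 at 30 min in WT, and 1 to 2 and 39 to 337 in Ikaros-Zn4-/-. Between genotypes they ranged over 0 to 1 and 105 to 300 at 0 min, 0 to 2 and 86 to 315 at 30 min and 1 to 3 and 706 to 1036 over all times, and for the interaction over 0 to 0 and 0 to 1. Leaving out a 120 min library gave no value for 120 min contrasts. Counts at 30 min and between genotypes thus depend on single libraries and on how the spread is estimated. Genotype values at 120 min rest on 1 library each, and Ccl4 and Ccl5 at 0 and 30 min on 4 to 24 reads per library.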
